A study of Mus musculus with 6 samples.

Results

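Type I interferon stimulated genes were examined in 6 bladder tumours of female mice by bulk RNA sequencing. The set was given as a list of 37 genes fixed by symbol, and 35 of them had a row among the 22063 genes of the deposited table. Mx2 and Oas1b are not analysed here. All 35 passed the expression filter, which left 14505 genes for testing. All tumours came from an immunocompetent mouse model in which bladder cancer arises spontaneously, and all had received an anti-PD-1 antibody after the tumours had formed. PD-1 is an inhibitory receptor on T cells. The labels call 3 tumours non-responsive (NR1, NR2 and NR3 below) and 3 responsive (R1, R2 and R3). There was no untreated group, so every value describes tumours under treatment. The sources used here do not give the strain, the age, the alleles or agents behind the tumours or the time of sampling. The labels do not tie each tumour to its own mouse, and the p-values therefore cover only how these 6 samples vary, possibly for technical reasons.

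Type I interferons are secreted when a cell senses foreign or misplaced nucleic acid, and they act on a receptor made of Ifnar1 and Ifnar2. The receptor activates a complex that holds Stat2 and Irf9, which binds the interferon stimulated response element in the promoters of its target genes. The products of these genes sense viral RNA, block its translation or copying, attach the ubiquitin-like protein ISG15 to other proteins, and feed back on the pathway. In tumours the same genes are read as a trace of interferon exposure in cancer, stromal and immune cells together. In bulk tissue a lower level can mean fewer cells of a type or less RNA per cell, and these cannot be told apart.

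The sequences below show what several members share that the list did not use. RefSeq promoter windows (build GRCm38.p6, 250 bases before to 50 bases after each gene's start) were found for 27 of the 35 members. The core of the response element, GAAA followed by any 2 bases and a second GAAA, was searched on both strands, and overlapping matches were counted separately. It was present in the windows of 14 of the 27 members (51.9%) and of 3.99% of all 27025 genes with a window. The longer form, the core followed directly by CT, was in 8 of 27 members (29.6%) and in 0.303% of all genes. A match is a description of letters and not a measured binding site. Stretches around the matches are printed for 8 members that differ in how their levels ran between the groups. They read 5′ to 3′ along the gene, capitals mark the bases of the core, and TTTC, any 2 bases and TTTC is the core on the opposite strand. The stretches are chr4:156200855-156200916 on the minus strand for Isg15, chr19:34640765-34640833 on the plus strand for Ifit1, chr19:34583353-34583436 on the plus strand for Ifit3 and chr19:34607749-34607832 on the plus strand for Ifit3b. The others are chr5:120907526-120907565 on the minus strand for Oas1a, chr5:120887614-120887651 on the minus strand for Oas1g, chr10:128270256-128270305 on the plus strand for Stat2 and chr12:26456543-26456592 on the minus strand for Rsad2.
Isg15: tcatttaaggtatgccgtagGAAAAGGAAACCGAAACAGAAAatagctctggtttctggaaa
Ifit1: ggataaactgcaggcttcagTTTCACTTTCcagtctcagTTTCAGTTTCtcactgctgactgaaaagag
Ifit3: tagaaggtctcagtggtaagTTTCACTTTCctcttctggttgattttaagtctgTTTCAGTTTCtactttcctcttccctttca
Ifit3b: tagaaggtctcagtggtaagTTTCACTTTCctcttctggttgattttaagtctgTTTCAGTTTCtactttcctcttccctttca
Oas1a: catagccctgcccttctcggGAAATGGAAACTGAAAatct
Oas1g: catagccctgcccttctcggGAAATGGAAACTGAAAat
Stat2: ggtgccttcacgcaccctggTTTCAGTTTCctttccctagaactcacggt
Rsad2: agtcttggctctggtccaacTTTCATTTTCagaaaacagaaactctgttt
Isg15 held 3 overlapping cores between 78 and 57 bases before its start. Ifit1 held 2 separate cores, and so did Ifit3 and its copy Ifit3b, whose printed stretches are the same letters at different distances from the start. The 14 members with a core had a median log2 fold change (non-responsive minus responsive) of 0.095, with 8 above 0. The 13 members with a window and no core had a median of 0.19, with 9 above 0, and they include both Ifit2 and Oasl1, which had the largest point estimates in either direction.

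Total counts were between 15046178 and 23917413 per tumour. Urothelial markers were present in every tumour, with the 8 basal and squamous markers summing to 3971 to 23970 CPM (counts scaled to library size with TMM normalisation) and the 8 luminal markers to 175 to 2392 CPM. NR2 stood apart in T cell markers, whose 12 genes summed to 201 CPM against 30.8 to 45.7 CPM in the other 5 tumours. R3 had the lowest summed leukocyte markers, with 240 CPM against 415.7 to 980.1 CPM elsewhere. NR1 also stood apart: without it 23.3% of all genes had an unadjusted p under 0.05, against 12.6% with all 6 tumours.

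The study set the 2 groups against each other to look for expression that goes with resistance to checkpoint blockade. No type I interferon stimulated gene passed the test. By edgeR's quasi-likelihood test with Benjamini-Hochberg adjustment over all genes, 0 of 35 members were called at 5%, and their adjusted p-values ran from 0.36 to 0.988. Over all 14505 genes the test called 0%. The point estimates ran from -0.96 for Oasl1 to 1.47 for Ifit2 on the log2 scale, 23 of 35 were above 0 (51% of all genes were), and their median was 0.12 beside 0.014 for all genes tested. DESeq2 called 0 of 35 as well, beside 2.99% of the tested genes that it gave an adjusted p, and its smallest adjusted p among members was 0.082.

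An unadjusted p under 0.05 was found for 4 members, or 11.4% of 35, beside 12.6% of all genes. Ifit2, Parp14 and Eif2ak2 were at higher levels in non-responsive tumours (6.79% of all genes had such a p and were higher) and Usp18 at a lower level (5.79% of all genes). With all 6 tumours, the share of members with so small a p was no larger than the share of all genes. The groups did not overlap for 2 members, Ifit2 above and Usp18 below, where 9.58% of all genes lay wholly above and 8.08% wholly below. Without NR3 0 of 35 had an unadjusted p under 0.05, beside 7.79% of all genes. Without R2 there were 7 of 35, all higher, beside 8.48% of all genes, and the members' share was then the larger of the 2. Without R3 there were 3 of 35, all lower, beside 8.05%. Without NR1 there were 5, 3 higher and 2 lower, beside 23.3%. Without NR2 (10% of all genes) or without R1 (10.6%) there were 2, Ifit2 and Usp18. The median log2 fold change of the members was 0.44 without R2, with 30 of 35 above 0, and -0.01 without R3, with 16 above 0. The list's count and its direction therefore changed with the tumours included.

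Few members had a large point estimate. The point estimate exceeded a 1.5-fold difference in either direction in 4 of 35 members (11.4%), beside 29.4% of all genes tested and 23.5% of the 11767 genes at 5 CPM or more in 3 tumours. These 4 were Ifit2, Parp14, Usp18 and Oasl1. The precision was limited: for 11 of 35 members (31.4%, beside 41.4% of all genes) the 95% interval lay within a 2-fold difference either way. For 0 of 35 it lay within a 1.5-fold difference, beside 7.69% of all genes. Irf9, Ifih1 and Bst2 were among the 11. For the others a 2-fold difference between the groups is within the interval.

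**Figure D1:**
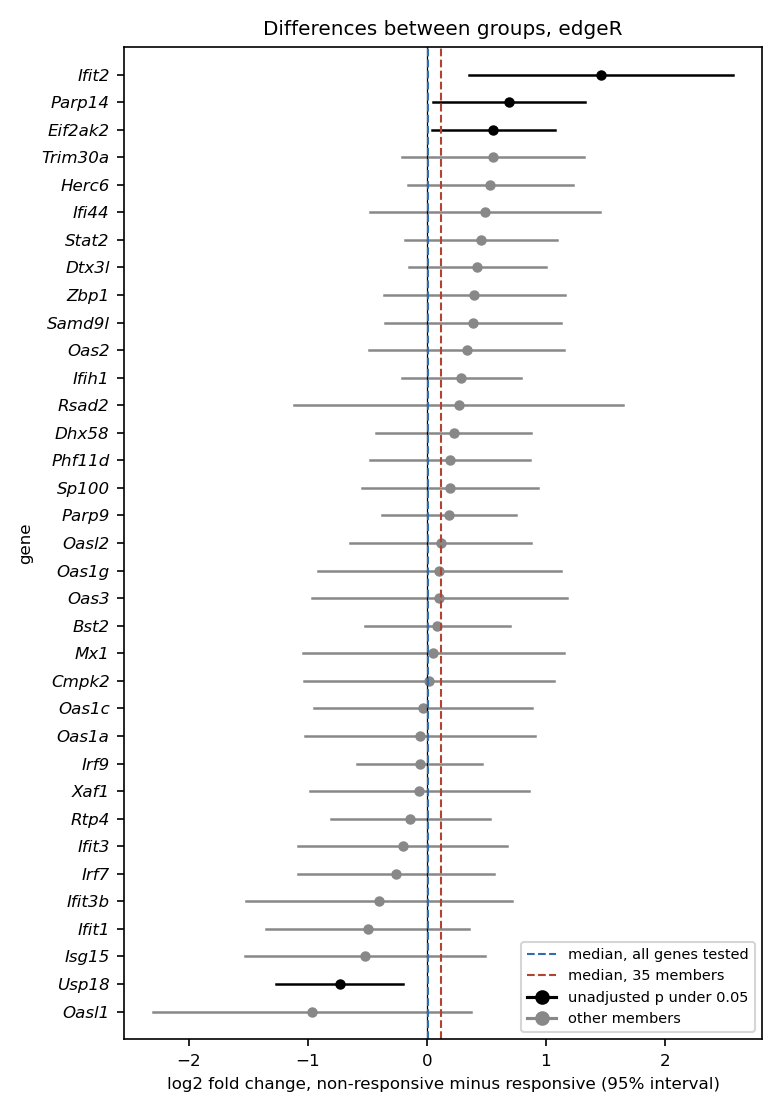
Log2 fold change (non-responsive minus responsive, horizontal axis) of the 35 members, ordered from Ifit2 at 1.47 to Oasl1 at -0.96, with 95% intervals from edgeR; black marks the 4 members with an unadjusted p under 0.05. The dashed lines are the medians of the members (0.12) and of all genes tested (0.014), and most intervals span 0.

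The members also varied between tumours within each group. For 13 of 35 members NR2 and R2, 1 tumour of each group, were the 2 highest, which was so for 3.62% of all genes. R3 was the lowest tumour for 22 of 35 members (62.9%) and for 17.7% of all genes. The tumours with the highest value were NR2 and R2, each for 13 members. R3 had the highest value for 0 members. The score of the list, the mean over members of log2 CPM minus the gene's mean over 6 tumours, was 0.03, 0.27 and -0.08 in NR1, NR2 and NR3 and -0.07, 0.38 and -0.53 in R1, R2 and R3. So the highest and the lowest score were both in responsive tumours, and all 3 non-responsive tumours lay between them. The median within-group SD of log2 CPM was 0.47 for members and 0.39 for all genes tested. These patterns were picked out after the values were seen and are descriptions.

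**Figure D2:**
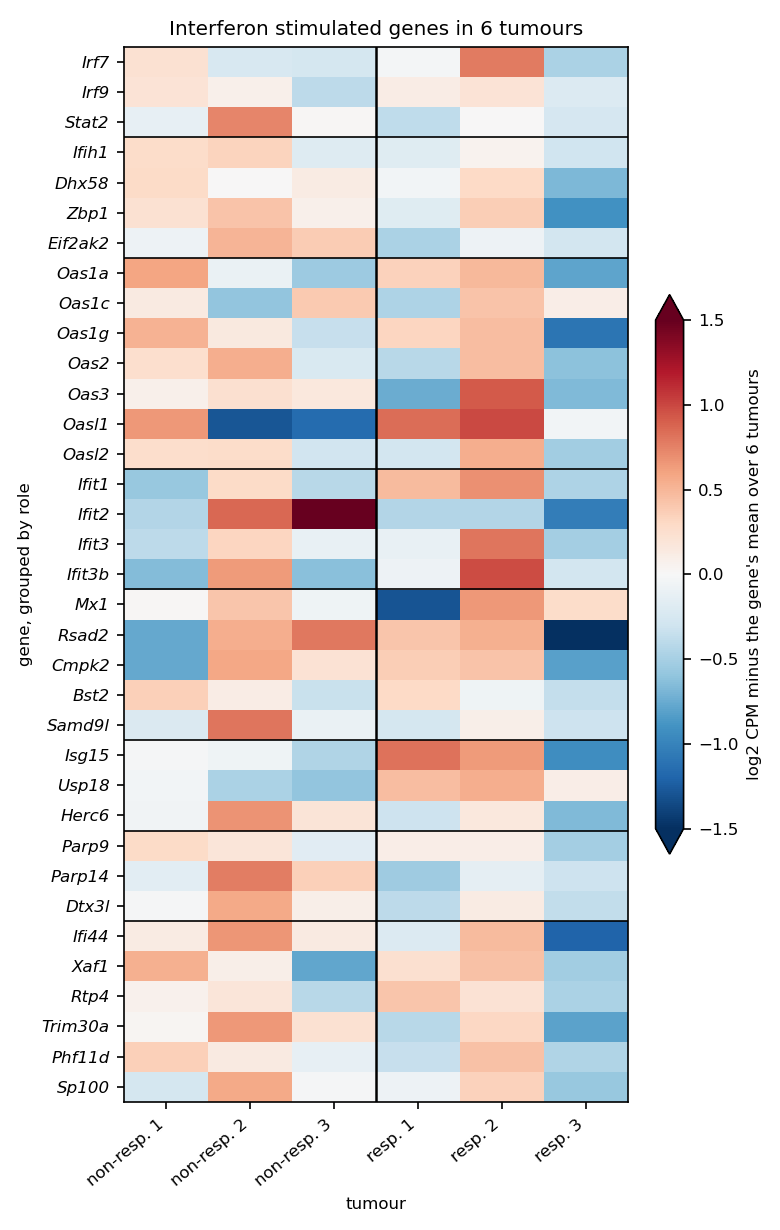
Log2 CPM of each member minus its mean over 6 tumours (colour; the scale ends at 1.5 either way), with tumours in columns, genes in rows and lines between roles; the vertical line separates the groups. The responsive tumour 3 column is lowest for 22 of 35 genes, while the non-responsive 2 and responsive 2 columns each hold the highest value for 13.

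Levels of different genes can be set side by side only per length, as FPKM (fragments scaled to gene length and depth). On that scale the mean over 6 tumours ran from 3.57 FPKM for Oas1c to 127.8 FPKM for Isg15. Irf7 followed Isg15 at 110.2 FPKM, then Ifit3 at 77.1, Bst2 at 76.6 and Rtp4 at 69 FPKM. Isg15 was at 109 ± 18.2 FPKM over NR1 to NR3 and 147 ± 73.1 FPKM over R1 to R3 (SD, n = 3), and Irf7 at 103 ± 7.46 and 118 ± 50 FPKM. Their ranges over the tumours overlapped between neighbours in this order. At the lower end were Herc6 at 6.24, Oas2 at 7.79 and Cmpk2 at 7.95 FPKM. The highest tumour exceeded the lowest by 1.51-fold for Irf9 and by 5.87-fold for Ifit2, the smallest and the largest such ratio in CPM among the 35.

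None of the 3 transcription factors of the pathway had an unadjusted p under 0.05, which 12.6% of all genes had. Irf7 (chromosome 7, 141262706 to 141266481), the factor that amplifies interferon production, was at 241, 174 and 171 CPM in NR1, NR2 and NR3 and at 202, 352 and 148 CPM in R1, R2 and R3. Its highest and lowest tumours were both responsive, and its log2 fold change was -0.26 ± 0.35 (SE; 95% interval -1.08 to 0.56). Stat2 (chromosome 10, 128270559 to 128292849), which relays the receptor's signal, was at 56.6, 103 and 62.5 against 47.6, 62.3 and 51.8 CPM. NR2 alone was well above the other tumours, and the log2 fold change was 0.45 ± 0.27 (SE; 95% interval -0.18 to 1.09). Irf9, its DNA-binding partner, differed by -0.06 ± 0.22 (SE; 95% interval -0.59 to 0.47), so a 2-fold difference lies outside its interval. In the GENCODE annotation Irf9 shares exonic sequence with Rnf31 on the same strand, so strand cannot separate their reads there. Irf7 shares exonic sequence with Phrf1 on the opposite strand, and the strand setting of the counting is not given.

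All 4 sensors of nucleic acid had a log2 fold change above 0, between 0.23 and 0.56. Eif2ak2 (chromosome 17, 78852564 to 78882573) encodes PKR, the kinase that halts translation when it binds double-stranded RNA. It was at 71.3, 107 and 98.3 CPM in the non-responsive and at 54.2, 71.3 and 62.2 CPM in the responsive tumours. NR1 and R2 stood at the same level, where the groups touched. The log2 fold change was 0.56 ± 0.22 (SE; unadjusted p = 0.0382, edgeR adjusted p = 0.38). Zbp1 (chromosome 2, 173206612 to 173218923), a sensor of Z-form nucleic acid that can start cell death, was at 78.7, 90.7 and 70.9 against 59.5, 86.8 and 35.9 CPM. R2 lay among the non-responsive tumours and R3 far below, and the difference was 0.40 ± 0.32 (SE). Ifih1, the RNA sensor MDA5, and Dhx58, its regulator LGP2, differed by 0.29 ± 0.21 and 0.23 ± 0.28 (SE).

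Active enzymes of the OAS family make 2′-5′ linked oligoadenylates that switch on an RNA-cutting enzyme, and not every member of the family has this activity. Of 7 members tested 4 were above 0 and 3 below, with a median of 0.10, and 0 had an unadjusted p under 0.05 (12.6% of all genes did). Oasl1 (chromosome 5, 114923240 to 114937915), reported as a brake on Irf7 translation in mice, was at 110, 28.7 and 31.3 CPM in NR1, NR2 and NR3 and at 125, 139 and 68.1 CPM in R1, R2 and R3. NR2 and NR3 were the lowest tumours, while NR1 lay within the responsive range. The log2 fold change was -0.96 ± 0.57 (SE; unadjusted p = 0.132), and it was -1.89 without NR1 (unadjusted p = 0.00214, edgeR adjusted p = 0.109), -0.63 without NR2 and -0.67 without NR3. Oasl2 (chromosome 5, 114896936 to 114912234), its neighbour on the same strand, did not follow it.

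Oasl2 was at 169, 170 and 116 CPM in the non-responsive and at 117, 205 and 98.4 CPM in the responsive tumours, with wide overlap. Its log2 fold change was 0.12 ± 0.32 (SE). The ratio of Oasl1 to Oasl2 in CPM, which does not depend on scaling between tumours, was 0.651, 0.169 and 0.27 in NR1 to NR3 and 1.07, 0.677 and 0.693 in R1 to R3. The groups did not overlap in this ratio, although NR1 came close to R2. The pair was chosen after its values were seen, so no test is given. Transcripts of the pair were 64.5% identical over 1444 aligned bases.

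The other OAS genes are encoded on chromosome 5 between 120730333 (Oas2) and 120907521 (Oas1a). Oas3 was at 35.7, 40 and 37.8 CPM in the non-responsive tumours and at 20.1, 64.2 and 21.4 CPM in the responsive ones. Its non-responsive values sat close together, and its highest and lowest values were both responsive. Oas2, Oas1g, Oas1c and Oas1a differed by 0.33, 0.11, -0.03 and -0.06 on the log2 scale. Oas1a and Oas1g transcripts were 97.5% identical over 1860 aligned bases, and both had counts that were not whole numbers, so how reads were divided between them is uncertain. Their summed CPM was 144, 93.5 and 68.2 against 122, 135 and 53.4.

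The IFIT genes lie next to each other on chromosome 19 between 34550694 and 34650009, and their products bind viral RNA or other IFIT proteins. They did not run together. Ifit2 was at 23.5, 57.6 and 90.2 CPM in NR1, NR2 and NR3 and at 23.4, 23.4 and 15.4 CPM in R1, R2 and R3. The groups did not overlap, but NR1 stood at the level of R1 and R2, and NR3 was the highest tumour. Its log2 fold change was 1.47 ± 0.47 (SE; unadjusted p = 0.0166, edgeR adjusted p = 0.364), a 2.76-fold difference. Without NR3 it was 0.96 (unadjusted p = 0.0632), without R3 1.29 (unadjusted p = 0.0523) and without NR1 1.84.

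Ifit1 (chromosome 19, 34640871 to 34650009), which binds RNA that lacks the host's cap methylation, was at 66, 120 and 73.5 against 137, 158 and 70.9 CPM. R3 lay among the non-responsive tumours and NR2 near R1, and the log2 fold change was -0.50 ± 0.36 (SE). Ifit3 was at 96.6, 159 and 118 against 118, 222 and 89.3 CPM (-0.20 ± 0.37, SE). Ifit3b is its near copy: their transcripts were 98% identical over 1697 aligned bases, so the division of reads between them is uncertain. The pair summed to 130, 241 and 152 CPM in NR1 to NR3 against 168, 328 and 133 CPM in R1 to R3, highest in R2 and NR2.

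Ifit2 and Ifit1 were thus compared within each tumour. The ratio of Ifit2 to Ifit1 in CPM was 0.355, 0.482 and 1.23 in NR1, NR2 and NR3 and 0.171, 0.148 and 0.217 in R1, R2 and R3. Every non-responsive tumour had a higher ratio than every responsive one. Against Ifit3 the ratio was 0.243, 0.363 and 0.767 against 0.198, 0.105 and 0.172, again without overlap. These pairs were chosen after the values were seen and are given without a test. The groups overlapped in the ratios of Isg15 to Usp18, Parp14 to Parp9, Rsad2 to Cmpk2 and Stat2 to Irf7. The share of all gene pairs without overlap was not computed.

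**Figure D3:**
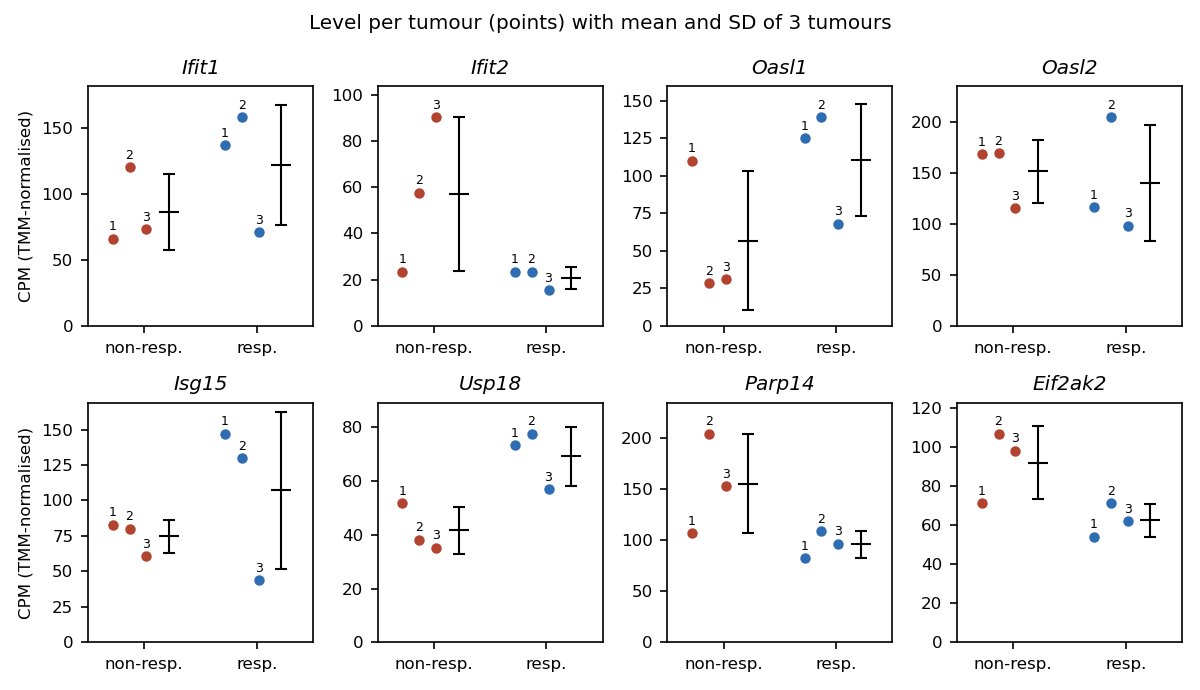
TMM-normalised CPM (vertical axis, from 0) of 8 members; points are tumours numbered by replicate, and the bars give the mean and SD of 3 tumours per group. Ifit2 and Usp18 are the 2 genes without overlap, and the groups overlap for Ifit1 and Oasl2, of the same families as Ifit2 and Oasl1.

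The next members act on membranes, capsids or nucleotides. All 5 tested had point estimates above 0, but only between 0.02 and 0.39. An unadjusted p under 0.05 was found for 0 of 5, beside 12.6% of all genes. Bst2 (chromosome 8, 71534255 to 71537456), the surface protein tetherin that holds budding virus back, was at 76.5, 64.6 and 47.4 against 73.8, 57.1 and 46.6 CPM. The groups spanned the same range, with a difference of 0.09 ± 0.26 (SE; 95% interval -0.52 to 0.70). Rsad2 (chromosome 12, 26442746 to 26456452), the enzyme viperin that makes a chain-terminating nucleotide, was at 25, 62.6 and 74 against 57.2, 62.3 and 15 CPM. NR1 and R3 were low and the other 4 tumours alike.

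Cmpk2, which supplies the nucleotide that viperin uses and is encoded next to Rsad2 on the opposite strand, was at 13.6, 34.9 and 27 against 30.1, 31.4 and 13.1 CPM. NR1 and R3 were again the low tumours. The log2 fold changes of Rsad2 and Cmpk2 were 0.27 ± 0.59 and 0.02 ± 0.45 (SE). Mx1, a dynamin-like GTPase, was at 22.3, 29.5 and 21.1 against 8.9, 34.5 and 26.7 CPM, with R1 below all others. Samd9l, a restriction factor of poxviruses, differed by 0.39 ± 0.31 (SE), with NR2 highest at 250 CPM and the other tumours between 116 and 152 CPM.

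ISG15 is a ubiquitin-like protein joined to newly made proteins, Herc6 is its main ligase in the mouse, and Usp18 removes it and also damps the interferon receptor. Usp18 (chromosome 6, 121245906 to 121270917) was at 51.8, 38.2 and 35.2 CPM in the non-responsive and at 73.3, 77.6 and 56.9 CPM in the responsive tumours. The groups did not overlap, and NR1 came nearest to R3. The log2 fold change was -0.73 ± 0.23 (SE; unadjusted p = 0.0142, edgeR adjusted p = 0.36), which is 1.66-fold lower in non-responsive tumours. Over the fits without 1 tumour it ran from -0.92 to -0.62. The unadjusted p was over 0.05 without NR3 (0.0557) and without R2 (0.058).

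Isg15 (chromosome 4, 156199424 to 156200818), the modifier itself, was at 82.9, 80.2 and 61 against 147, 130 and 43.9 CPM. R1 and R2 were the highest tumours and R3 the lowest, so the responsive group enclosed the non-responsive one. Its log2 fold change was -0.52 ± 0.43 (SE; unadjusted p = 0.263). Without R3, it was among the members with an unadjusted p under 0.05. Herc6 ran the other way, with 26.6, 44.3 and 31.6 against 22.3, 31 and 17.5 CPM and a difference of 0.53 ± 0.30 (SE; unadjusted p = 0.113). In GENCODE 29 of its exon entries, counted over all transcripts, overlap the processed transcript Gm45193 on the same strand, so its reads are uncertain. Parp14 overlaps Gm49730 on the same strand in 3 such entries. On the opposite strand Eif2ak2 overlaps Gm26637 in 3 entries, Usp18 overlaps Gm44148 in 2 and Oasl1 overlaps Gm13822 in 2. Reads from these opposite-strand pairs cannot be told apart without strand.

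Parp9, Dtx3l and Parp14 are encoded close together on chromosome 16. Parp9 and Dtx3l form an ADP-ribosyltransferase and ubiquitin ligase complex that boosts interferon signalling, and Parp14 modifies proteins in the same pathway. All 3 had estimates above 0. Parp14 (chromosome 16, 35832874 to 35871544) was at 107, 204 and 153 against 82.2, 109 and 96.6 CPM, with NR1 just below R2 and NR2 far above all others. Its log2 fold change was 0.69 ± 0.27 (SE; unadjusted p = 0.0369, edgeR adjusted p = 0.378), and 0.46 without NR2 (unadjusted p = 0.107). Parp9 was at 125, 116 and 91 against 110, 109 and 72 CPM (0.19 ± 0.24, SE), with overlap. Dtx3l differed by 0.43 ± 0.24 (SE). Parp9 and Dtx3l overlap on opposite strands and their counts were not whole, so reads from them cannot be told apart without strand.

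Of the remaining 6 members 4 were above 0 and 2 below, and 0 had an unadjusted p under 0.05, beside 12.6% of all genes. Rtp4 (chromosome 16, 23520291 to 23614222), a chaperone of receptors and a negative regulator of interferon responses, was at 81.1, 87.7 and 57.8 against 103, 90.1 and 55.8 CPM, a difference of -0.14 ± 0.28 (SE). Ifi44 (chromosome 3, 151730922 to 151749960) was at 58.3, 84.6 and 58.6 against 46.3, 74.2 and 23.2 CPM. R3 was far below the other tumours, and the difference was 0.49 ± 0.41 (SE). Trim30a, Phf11d, Sp100 (a nuclear body protein) and Xaf1 (an antagonist of apoptosis inhibitors) differed by 0.55, 0.20, 0.19 and -0.06 on the log2 scale.

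Interferon genes themselves had few counts or none. Ifng, which was too low to be tested, had 6, 22 and 12 counts in NR1 to NR3 against 0, 5 and 2 in R1 to R3. Its groups did not overlap after normalisation, but NR1 and R2 were close (0.398 and 0.317 CPM). Ifne had 5, 15 and 23 against 6, 15 and 26 counts, and Ifnk 9, 0 and 0 against 11, 7 and 0. Ifnb1 had 2 counts in NR2 and 0 in the other tumours. Ifna1, Ifna2, Ifna4, Ifna5 and Ifnl3 had 0 counts in all 6, which allows up to 3 counts, or 0.124 to 0.199 CPM per tumour. Of 16 ligand and receptor genes 7 were tested, 6 of them above 0. Ifnar1, a chain of the type I receptor, had counts of 868, 1988 and 1993 in NR1 to NR3 against 1108, 793 and 1271 in R1 to R3. After normalisation the groups did not overlap for Ifnar1 (log2 fold change 0.80 ± 0.27, SE; unadjusted p = 0.0204, edgeR adjusted p = 0.364). Ifnar2, the other chain, differed by 0.10 ± 0.26 (SE).

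Among 23 genes that induce or relay interferon, 18 were above 0, with a median of 0.21. Of them 3 had an unadjusted p under 0.05 and were higher and 1 was lower, 17.4% in all beside 12.6% of all genes. Of the 23, 0 passed edgeR and DESeq2 called 1, beside 2.99% of all genes. That gene was Tlr9 (DESeq2 adjusted p = 0.0108). Tlr9, an endosomal DNA receptor, was at 6.56, 16.5 and 12.7 against 3.75, 4.06 and 2.06 CPM, without overlap, a difference of 1.86 ± 0.46 (SE). Jak2, a kinase of interferon gamma signalling, differed by 0.83 ± 0.31 (SE), while Mavs, the adaptor of the RNA sensors, differed by -0.59 ± 0.23 (SE). Tlr7, which reads RNA, differed by 0.91 ± 0.38 (SE). Irf1 differed by 0.51 ± 0.28 (SE).

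A list of 48 further interferon stimulated genes with a row, 47 of them tested, had a median of 0.11, with 30 above 0. In it 10 genes had an unadjusted p under 0.05 and were higher and 1 was lower, 23.4% in all beside 12.6% of all genes. Of the 47, 0 passed edgeR and DESeq2 called 5, beside 2.99% of all genes. Ms4a4c, a membrane protein of the MS4A family, was at 38.8, 33.2 and 25.8 against 13.3, 10.3 and 6.35 CPM, without overlap (1.70 ± 0.33, SE; edgeR adjusted p = 0.35). Slfn8 and Slfn9, of the Schlafen family, differed by 1.19 ± 0.25 and 0.90 ± 0.20, and Pnpt1, a mitochondrial RNA nuclease, by 0.88 ± 0.18 (SE). Ifi27 differed by -1.69 ± 0.45 (SE), with R1 highest at 187 CPM. So genes of both directions stood beside each other in this list too.

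Interferon gamma response genes had larger point estimates in these tumours. Of 24 tested 21 were above 0 and the median was 0.97, beside 0.12 for the type I members. An unadjusted p under 0.05 was found for 11 (45.8%), all higher, beside 6.79% of all genes that had such a p and were higher. Of the 24, 0 passed edgeR and DESeq2 called 5, beside 2.99% of all genes. Tgtp2, an interferon-inducible GTPase with the close paralog Tgtp1, was at 57.1, 151 and 101 against 24, 43.7 and 25.2 CPM (1.73 ± 0.41, SE). Cxcl9 and Cxcl10, chemokines that draw T cells, differed by 3.73 ± 1.04 and 1.86 ± 0.56, and Gbp4, a guanylate-binding protein, by 2.44 ± 0.64 (SE). Cxcl9 was at 14.2, 241 and 127 against 11.3, 14.9 and 2.84 CPM, so NR1 lay within the responsive range. Iigp1 differed by 1.89 ± 0.54 (SE). The sum of this list was 1173, 2731 and 1509 CPM in NR1, NR2 and NR3 and 874.4, 1296 and 795.2 CPM in R1, R2 and R3. The 35 type I members summed to 2507, 3014 and 2269 against 2423, 3232 and 1733 CPM. Both sums come from the same tumours, and the difference between the lists was not tested. Which interferon induced the genes of either list was not tested.

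**Figure D4:**
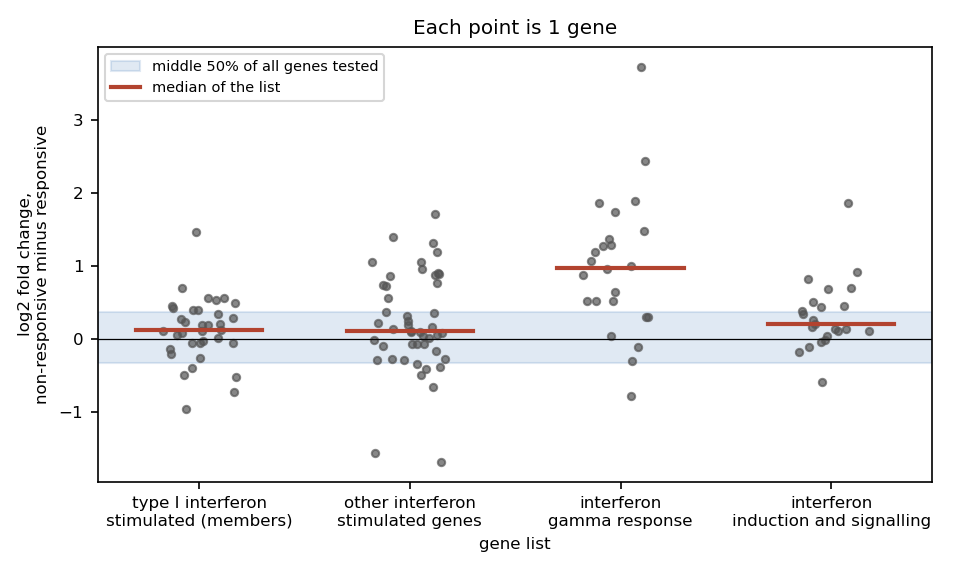
Log2 fold change (non-responsive minus responsive, vertical axis) of each tested gene in 4 lists, with list medians in red and the middle 50% of all genes tested shaded. The medians are 0.12 for the type I members, 0.11 for other interferon stimulated genes, 0.97 for interferon gamma response genes and 0.21 for induction and signalling genes.

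Markers of immune cells moved with some of these values. R3, the tumour with the lowest value for 22 members, also had the lowest sums of leukocyte markers (240 CPM), of 12 macrophage and monocyte markers (635.4 CPM against 1119 to 1748 elsewhere) and of 9 neutrophil markers (85.8 CPM against 299 to 820.2 elsewhere), and the highest sum of luminal markers (2392 CPM). NR2 had the highest leukocyte and macrophage sums and the T cell sum of 201 CPM. R2, with the highest list score, had leukocyte and T cell sums of 488.7 and 43.6 CPM, which were not the highest. All 5 leukocyte, 12 macrophage and 12 T cell markers had log2 fold changes above 0, with medians of 0.79, 0.64 and 1.31. Of 8 endothelial markers 8 were above 0, and 4 (50%) had an unadjusted p under 0.05, beside 12.6% of all genes. Luminal markers differed more: 7 of 8 were below 0, with a median of -2.21. Their sums still overlapped between the groups, with 1029 CPM in NR1 and 497.6 CPM in R1. An unadjusted p under 0.05 was found for 5 luminal markers (62.5%), and DESeq2 called 4, beside 12.6% and 2.99% of all genes. Of the 8 basal and squamous markers 7 were above 0, with a median of 0.68. Of the markers of plasmacytoid dendritic cells, potent producers of type I interferon, Siglech was at 0.53, 5.63 and 1.16 CPM in NR1 to NR3 and at 1.54, 1.52 and 1.28 CPM in R1 to R3. The 9 markers summed to 652.2 to 2211 CPM, of which Ly6d, which epithelium also expresses, made 474 to 2140 CPM. The part of immune, endothelial and epithelial cells in the levels of the members was not tested.

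**Figure D5:**
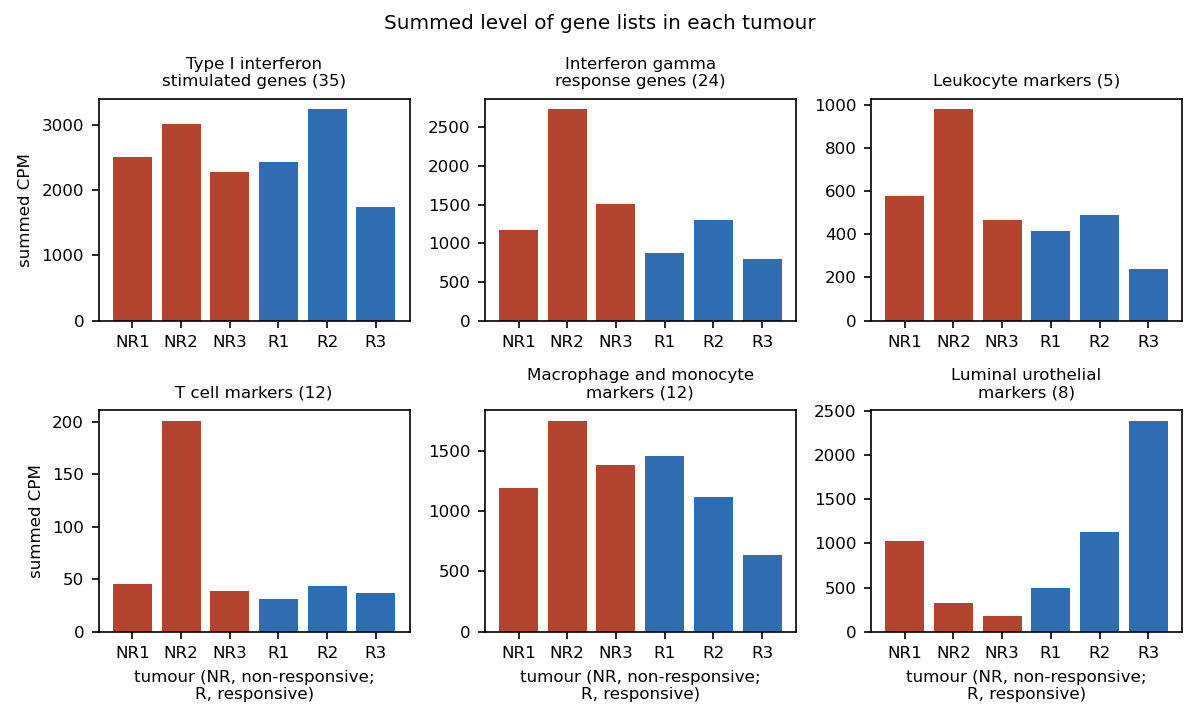
Summed CPM (vertical axes, from 0) of the 35 members, the interferon gamma response genes and 4 marker lists in each tumour (red, non-responsive; blue, responsive). The sum of the 35 members runs from 1733 to 3232 CPM, both in responsive tumours, while the leukocyte, T cell and macrophage sums are highest in NR2.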

How the data were processed

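Total RNA of 6 tumours was sequenced from Illumina TruSeq libraries, per the labels' protocols, with mm10 as the build per the submitters' processing notes. The authors deposited estimated counts, whose totals differ between tumours, and FPKM values, which correct for gene length and depth. The sources used here name no aligner, counter, strand setting or annotation. Counts were rounded and tested with edgeR 4.0.16 in R 4.3.3 (TMM, default filter, robust quasi-likelihood, two-sided, Benjamini-Hochberg over 14505 genes). DESeq2 1.42.0, limma 3.58.1 and the fits without each tumour were alternatives. The limma-voom fit gave each tumour a quality weight. In simulated counts of 14505 genes, edgeR found 15% of the 80 genes altered by 2-fold and 87.5% of the 80 altered by 4-fold, with 6 false calls. The altered genes had a mean of 5 CPM or more. Each gene's spread followed edgeR's trend with level, without outlying tumours or a spread of its own. The share found in the real tumours may therefore be lower. Coordinates are from GENCODE M21 (GRCm38), count from 1, and were matched by gene identifier for all 35 members. Paralogs were aligned with Biopython 1.88. Members, lists and ordering were chosen with earlier results of these data known. Named within each role were members at an unadjusted p under 0.05, that of highest FPKM and at least 2 in all; other named genes were up to 4 of smallest p per list and some fixed ones. Limits that a count of 0 allows cover counting error only. Every pair of libraries differed by more than counting noise (chi-square over degrees of freedom at least 75.7). The values of 1 signalling gene named by that rule are not reported here.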

Additional observations from a re-analysis of the deposited data

How the results depend on the processing

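With edgeR's quasi-likelihood test 0 genes were called under every scaling, filter and left-out tumour tried. DESeq2 called 447 of the 18185 genes it fitted, of which 432 were among the 14455 genes that also passed the edgeR filter and had an adjusted p. No member was called by any of them, with the smallest adjusted p of a member at 0.082 (DESeq2). Of the members with an unadjusted p under 0.05, 3 were higher and 1 lower. That count lower was 2 with limma-voom, with limma on log2(FPKM + 1) and log2(FPKM + 0.1), and with the replicate block. The count higher was 1 in both FPKM fits. Such a p was found for 22.9% of all genes with limma-voom, 11.1% and 11.2% in the FPKM fits and 11% with the replicate block. With limma-voom, which was fitted with a quality weight for each tumour, 15 of 35 members were above 0. Over the fits without 1 tumour the count higher ran from 0 to 7 and the count lower from 0 to 3. In those fits 7.79% to 23.3% of all genes had such a p. The median of the members, 0.12 with all tumours, was -0.095 with limma-voom, 0.27 and 0.28 on the FPKM scales (27 of 35 above 0) and 0.21 with the replicate block. Without 1 tumour it ran from -0.01 (without R3) to 0.44 (without R2). The cause was not tested. With 3 tumours a group, 2-fold differences were mostly missed in simulated data, which held no outlying tumours.

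The labels number the tumours 1 to 3 in both groups. Deviations of same-numbered tumours from their group means correlated at -0.11, -0.087 and -0.024, and those of other pairs at -0.12 to 0.19. With 3 tumours a group these values cannot decide whether the numbers pair the tumours. With the replicate block 0 genes were called. In that fit 3 members were higher and 2 lower at an unadjusted p under 0.05, beside 11% of all genes. Ifit2 was then not among them (unadjusted p = 0.0616), while Trim30a (0.0381) and Oasl1 (0.0445) were.

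The sign of some small log2 fold changes turned, for members with an unadjusted p of at least 0.369. With limma-voom they were -0.053 for Cmpk2, -0.27 for Mx1, -0.20 for Oas1g, -0.095 for Oas2, -0.30 for Oas3, -0.30 for Oasl2, -0.16 for Phf11d and -0.051 for Sp100. On log2(FPKM + 1) and log2(FPKM + 0.1) they were 0.0014 and 0.0012 for Irf9, 0.044 and 0.046 for Oas1a, 0.12 and 0.16 for Oas1c, and 0.043 and 0.044 for Xaf1. Over the fits without 1 tumour they ran from -0.083 to 0.27 for Bst2, -0.29 to 0.31 for Cmpk2, -0.45 to 0.26 for Ifit3, -0.94 to 0.092 for Ifit3b, -0.50 to 0.16 for Irf7, -0.19 to 0.093 for Irf9, -0.34 to 0.45 for Mx1 and -0.42 to 0.17 for Oas1a. They ran from -0.25 to 0.23 for Oas1c, -0.25 to 0.37 for Oas1g, -0.18 to 0.86 for Oas3, -0.085 to 0.49 for Oasl2, -0.15 to 0.61 for Rsad2, -0.36 to 0.049 for Rtp4, -0.063 to 0.44 for Sp100 and -0.39 to 0.22 for Xaf1.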
